A study of Homo sapiens with 12 samples.

Results

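Translation elongation factors and 2 companion mRNAs of the same class were followed through an RNA immunoprecipitation sequencing experiment on ARID5A, an RNA-binding protein known to stabilise inflammatory transcripts. The 7 genes were taken by Ensembl identifier, under a rule that uses no measured value but was drawn up with earlier results of these data known: EEF1A1, EEF1B2, EEF1D, EEF1G, EEF2, TPT1 and PABPC1, out of 60708 features per library. All 7 were found, had at least 63 estimated counts in each of the 12 libraries, and passed the filter on low counts with 24040 features in all.

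The cells were HK2, an immortalised human kidney epithelial line of proximal tubule origin. All dishes, the controls included, were transfected with 10 µg of plasmid for FLAG-tagged human Arid5a, so each group carried the tagged protein. The 4 groups of 3 libraries were FLAG precipitates after IL-17, mouse IgG1 precipitates after IL-17, FLAG precipitates in medium and mouse IgG1 precipitates in medium. IL-17, an inflammatory cytokine, was given at 200 ng/mL for 3 h, and the IgG precipitates measured the background of the procedure. A single cell line was used, and the level of the tagged protein was not measured here. No unprecipitated lysate was analysed here, so a larger cellular amount of a transcript and better recovery on the beads cannot be told apart, nor can fewer cells and less RNA per cell.

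EEF1A1 encodes the GTPase that brings aminoacyl-tRNA to the ribosome, and EEF1B2, EEF1D and EEF1G encode subunits of the eEF1B complex that recharges it with GTP. EEF2 encodes the GTPase that moves the ribosome along the mRNA by a codon. These transcripts, like TPT1 (translationally controlled tumour protein) and PABPC1 (cytoplasmic poly(A)-binding protein), are known as TOP mRNAs: they begin with a C followed by an unbroken run of pyrimidines, the feature through which mTOR and LARP1 control their translation. They belong to the most abundant mRNAs of growing cells.

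The transcript starts are shown because the shared pyrimidine run is what defines the class. Sequences are from RefSeq on GRCh38.p14, on the transcribed strand, from 10 bases before the annotated start through the first 20 transcribed bases. Capitals mark a run of C and T of at least 4 bases that opens with a C within the first 2 transcribed bases. Start windows of 5 of the 7 genes are given, with a pair of annotated starts for EEF1B2.
EEF1A1 (chr6:73521013-73521042, minus strand): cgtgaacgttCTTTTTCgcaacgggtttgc
EEF2 (chr19:3985444-3985473, minus strand): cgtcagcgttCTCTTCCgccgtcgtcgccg
TPT1 (chr13:45341164-45341193, minus strand): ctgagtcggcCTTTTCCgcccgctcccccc
EEF1G (chr11:62573872-62573901, minus strand): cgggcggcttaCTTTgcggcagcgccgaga
EEF1B2, downstream start (chr2:206159885-206159914, plus strand): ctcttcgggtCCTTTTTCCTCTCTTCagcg
EEF1B2, upstream start (chr2:206159599-206159628, plus strand): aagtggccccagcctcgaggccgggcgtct

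The run was 7 bases long in EEF1A1, EEF2 and TPT1 and 16 bases long at the downstream start of EEF1B2. In EEF1G it was 4 bases long and opened at base 2, after an A. No such run opened the upstream EEF1B2 start. Searched in the same way on the transcribed strand alone, 10.3% of all 35116 start windows held a run of at least 4 bases and 7.15% held one of at least 5. A match of this kind describes the letters around an annotated start and was not checked against read ends.

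In the tables the genes are EEF1A1 (ENSG00000156508.19), EEF1B2 (ENSG00000114942.14), EEF1D (ENSG00000104529.18), EEF1G (ENSG00000254772.10), EEF2 (ENSG00000167658.16), TPT1 (ENSG00000133112.17) and PABPC1 (ENSG00000070756.17). On GRCh38.p14, RefSeq places EEF1A1 at chr6:73515750-73521032, EEF1B2 at chr2:206159609-206162928, EEF1G at chr11:62559596-62573891, EEF2 at chr19:3976056-3985463 and TPT1 at chr13:45333471-45341183. The genes also differ in what lies within them and in how many copies they have, both of which bear on counting. RefSeq places the small nucleolar RNA genes SNORA31 (chr13:45337480-45337609) and SNORA31B (chr13:45336314-45336447) inside TPT1. SNORD51 (chr2:206161881-206161950) and SNORA41 (chr2:206162228-206162359) lie inside EEF1B2, and SNORD37 (chr19:3982507-3982572) lies inside EEF2. RefSeq lists 50 numbered pseudogenes of EEF1A1, 14 of TPT1, 13 of PABPC1, 8 each of EEF1B2, EEF1D and EEF1G, and 0 of EEF2. The estimated count of EEF2 was whole in all 12 libraries, whereas that of EEF1A1, EEF1B2 and TPT1 was whole in 0. Counts that are not whole arise where reads are divided between features, and these genes' values are uncertain by the amount so divided. The sources used here do not state the strand setting of the counting.

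Total estimated counts ran from 746911 to 17723136 per library, and 3 counts, the limit that a count of 0 allows, equal 4.02 CPM (counts per 1000000) in the shallowest library. The lowest value of any of the 7 genes was 63 counts, for EEF1G in IgG medium replicate 1, with an exact 95% Poisson interval of 48.4 to 80.6, which reflects counting error alone. IgG medium replicate 1 stood apart by its depth. IgG IL-17 replicate 1, FLAG medium replicate 1 and IgG medium replicate 2 stood apart by their content. Their TMM factors were 1.47 to 1.55, against at most 1.34 in the other libraries. Comparisons were also made without these 4 libraries. FLAG IL-17 replicate 3 and IgG IL-17 replicate 3, with low factors of 0.614 and 0.700, were kept. Levels are given as TPM (transcripts per 1000000), which are scaled to length and so can be set between genes. Differences between groups are given on CPM scaled by TMM, edgeR's composition factor.

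By TPM, EEF1A1 and TPT1 were the highest of the 7 and the eEF1B subunits the lowest in most libraries. EEF1A1 had 309, 184 and 90.9 TPM in FLAG IL-17, 169, 117 and 83.2 TPM in IgG IL-17, 106, 410 and 142 TPM in FLAG medium and 35.7, 233 and 178 TPM in IgG medium. Replicates within a group differed by up to 6.52-fold, and all groups overlapped. TPT1 had 146, 100.05 and 122 TPM in FLAG IL-17, 71.0, 71.5 and 96.6 TPM in IgG IL-17, 293, 194 and 325 TPM in FLAG medium and 254, 164 and 289 TPM in IgG medium. TPT1 was thus lower in all IL-17 libraries than in any medium library, and its replicates differed by no more than 1.77-fold. EEF1A1 was above TPT1 in 6 of 12 libraries and below it in the other 6, so their order is not settled beyond the spread.

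PABPC1, which coats poly(A) tails, averaged 60.2 ± 33.7 TPM in FLAG IL-17, 48.5 ± 14.8 TPM in IgG IL-17, 122 ± 73.6 TPM in FLAG medium and 128 ± 109 TPM in IgG medium (SD, n = 3 each). EEF2 averaged 51.7 ± 26.2, 47.7 ± 16.6, 89.9 ± 67.9 and 60.7 ± 46.9 TPM in FLAG IL-17, IgG IL-17, FLAG medium and IgG medium. PABPC1 was above EEF2 in 10 of 12 libraries, and EEF2 over PABPC1 ran from 0.381 to 1.02 within libraries. The SD of either gene is between replicates and does not measure this gap. EEF1B2 had 63.01, 45.9 and 26.6 TPM in FLAG IL-17, 34.1, 20.1 and 12.1 TPM in IgG IL-17, 20.7, 141 and 69.7 TPM in FLAG medium and 21.2, 76.3 and 68.4 TPM in IgG medium. EEF1D ran from 19.1 to 90.7 TPM and EEF1G from 5.88 to 89.6 TPM over the 12 libraries, ranges that overlap. EEF1D was above EEF1G in 4 libraries and below it in 8. EEF1D over EEF1G ran from 0.762 in FLAG medium replicate 1 to 6.87 in IgG medium replicate 1.

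**Figure D1:**
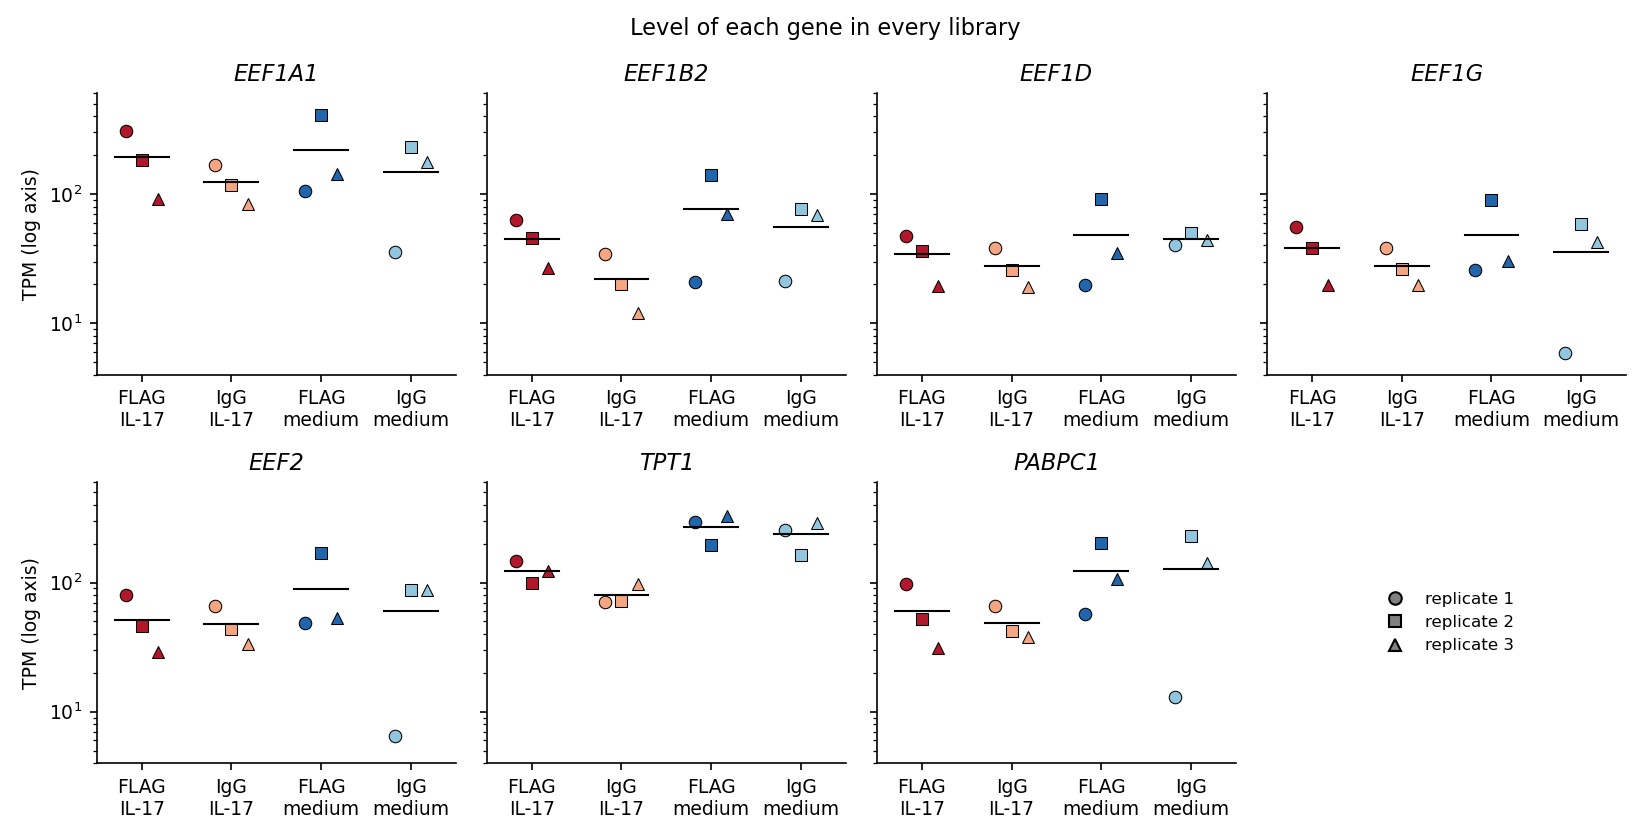
TPM (log axis) of each gene in the 12 libraries, grouped by antibody and treatment; points are libraries, with 1 marker shape per replicate number, and bars are group means. TPT1 lies between 71.0 and 146 TPM in the 6 IL-17 libraries and between 164 and 325 TPM in the 6 medium libraries. EEF1D lies between 19.15 and 38.1 TPM in IgG IL-17 and between 40.4 and 49.7 TPM in IgG medium. Between FLAG and IgG, the 6 genes other than TPT1 overlap in each treatment.

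The order with EEF1A1 and TPT1 highest and the eEF1B subunits lowest did not hold in every medium library. PABPC1 stood at place 2, above TPT1, in FLAG medium replicate 2 and IgG medium replicate 2. EEF1B2 stood at place 4, above EEF2, in FLAG medium replicate 3. IgG medium replicate 1, the shallowest library, also broke the usual order. There EEF2 fell to place 6 of the 7 with 6.52 TPM and EEF1D stood at place 2 with 40.4 TPM, above EEF1A1. In the other 11 libraries EEF1A1 exceeded EEF1D from 3.99-fold to 6.48-fold.

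After IL-17, the amount of these mRNAs in FLAG precipitates was set against that in IgG precipitates, to see whether they came down with Arid5a. All 7 genes had a positive log2 fold change here, with a median of 0.58 against -0.33 over all features tested, but edgeR called 0 of the 7 and 0% of the 24040 features. The contrast with all features was smaller among better counted features. In a fit of the 13278 features with at least 50 counts in 3 libraries, the median over all was -0.0097. There the 7 genes ran from 0.096 for EEF2 to 1.15 for EEF1B2. EEF1B2, an eEF1B subunit with nucleotide exchange activity, had the highest value of the 7: 304, 359 and 370 CPM in FLAG IL-17, against 101, 163 and 136 CPM in IgG IL-17. Every FLAG library was above every IgG library. Its log2 fold change was 1.37 ± 0.58 (SE), with an unadjusted p of 0.0262 and an adjusted p of 0.923 by edgeR's quasi-likelihood test. Without the 4 libraries that stood apart it was 1.22 ± 0.25 (SE, edgeR adjusted p = 0.189). EEF1B2 was the only one of the 7 with an unadjusted p under 0.05 by edgeR; by DESeq2, EEF1A1 and EEF1B2 were under it and 0 were called, and by limma on log2(TPM + 1) 0 were under it.

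EEF1A1 had 4265, 4004 and 3525 CPM in FLAG IL-17, against 1390.2, 2543 and 2491 CPM in IgG IL-17, a log2 fold change of 0.88 ± 0.62 (SE, edgeR adjusted p = 0.923). EEF1G had 560.0, 615 and 552 CPM in FLAG IL-17, against 226, 400 and 436 CPM in IgG IL-17, with a log2 fold change of 0.70 ± 0.54 (SE, edgeR adjusted p = 0.923). FLAG and IgG libraries were fully separated for these, for EEF1B2 and for PABPC1, that is for 4 of the 7 genes, where 14.6% of all features tested were separated in that direction; downward it was 0 of the 7 and 12.3% of features. On TPM the separation was lost for all 4. TPT1 alone was separated upward, where 0.341% of features were, and 0 of the 7 were separated downward, where 6.07% were. The separation of TPT1 was narrow, with 100.05 TPM in FLAG IL-17 replicate 2 against 96.6 TPM in IgG IL-17 replicate 3. Its log2 fold change by limma on log2(TPM + 1) was 0.62 ± 0.61 (SE, unadjusted p = 0.33), and on CPM its groups overlapped. For EEF2 the groups overlapped, with 1161, 1072 and 1293 CPM in FLAG IL-17 against 548, 1026 and 1328 CPM in IgG IL-17 (log2 fold change 0.28 ± 0.62 (SE), edgeR adjusted p = 0.953). Without IgG IL-17 replicate 1, its log2 fold change was 0.0039.

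Ratios between genes within a library do not depend on how libraries are scaled to each other. They were chosen after the values were seen and are given as a description. Relative to EEF2, whose counts were not divided with other features, EEF1B2 had 0.262, 0.334 and 0.286 counts per EEF2 count in FLAG IL-17, against 0.184, 0.159 and 0.103 in IgG IL-17. EEF1A1 had 3.67, 3.74 and 2.73 counts per EEF2 count in FLAG IL-17, against 2.53, 2.48 and 1.88 in IgG IL-17. EEF1A1, EEF1B2 and EEF1G, 3 of the 6 genes set against EEF2, were separated upward, where 4.43% of all other features were, and 0 of the 6 were separated downward, where 15% were. On these count ratios, 0 of the 6 were separated between FLAG and IgG in medium (3.68% of features upward and 1.27% downward). Between IL-17 and medium, 0 of the 6 were separated in FLAG (3.11% upward and 25.1% downward) and 0 in IgG (4.07% upward and 5.34% downward).

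The balance among the eEF1B subunit genes showed the same difference on the length-scaled TPM values. EEF1B2 over EEF1D was 1.32, 1.28 and 1.38 in FLAG IL-17, against 0.895, 0.780 and 0.632 in IgG IL-17. EEF1B2 over EEF1G was 1.13, 1.197 and 1.33 in FLAG IL-17, against 0.894, 0.771 and 0.615 in IgG IL-17. EEF1B2 was therefore the highest of the 3 subunit genes in all 3 FLAG IL-17 libraries and the lowest of them in all 3 IgG IL-17 libraries. Among medium libraries, EEF1B2 was below EEF1D only in IgG medium replicate 1 and below EEF1G only in FLAG medium replicate 1. Of the 21 ratios between pairs of the 7 genes, 12 were separated between FLAG and IgG after IL-17 and 0 in medium. Over all pairs among the 999 features with at least 50 counts and 0.5 TPM in every library, 28.8% were separated after IL-17 and 8.27% in medium. Between IL-17 and medium, 5 of the 21 ratios were separated in FLAG, where 31.5% of feature pairs were, and 5 in IgG, where 27.4% were. In FLAG, EEF1A1 and EEF1G were higher after IL-17 relative to EEF2, and EEF1A1, EEF1D and EEF1G relative to PABPC1. In IgG, EEF1B2 was lower after IL-17 relative to EEF1A1, EEF1G and EEF2, with 0.894, 0.771 and 0.615 over EEF1G in IgG IL-17 against 3.61, 1.298 and 1.60 in IgG medium, while EEF1G and EEF2 were higher relative to PABPC1. On counts, none of the ratios to EEF2 was separated between IL-17 and medium. EEF1A1 had 3.67, 3.74 and 2.73 counts per EEF2 count in FLAG IL-17, against 2.67, 2.77 and 2.71 in FLAG medium. EEF1B2 had 0.184, 0.159 and 0.103 in IgG IL-17, against 0.675, 0.274 and 0.168 in IgG medium. The separations relative to EEF2 therefore depended on the scale. The 21 ratios share genes and libraries and are not independent.

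**Figure D2:**
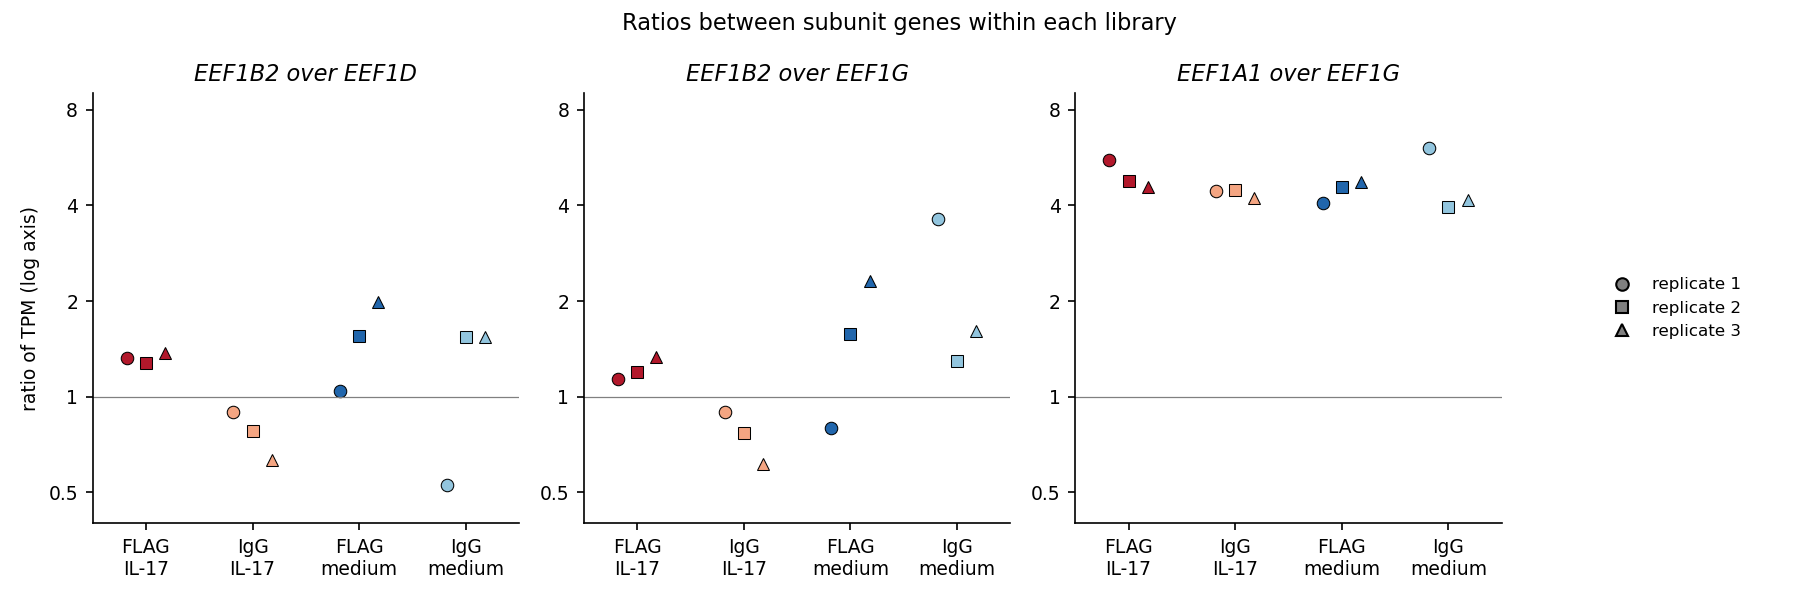
Ratio of TPM (log axis) between pairs of elongation factor genes within each of the 12 libraries, by antibody and treatment; points are libraries, with 1 marker shape per replicate number, and the line marks a ratio of 1. EEF1B2 over EEF1D and over EEF1G lies above 1 in all FLAG IL-17 libraries and below 1 in all IgG IL-17 libraries. Among medium libraries, EEF1B2 over EEF1D lies below 1 only in IgG medium replicate 1 (0.526). EEF1B2 over EEF1G does so only in FLAG medium replicate 1 (0.795).

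The same enrichment was then examined in medium, without the cytokine. Replicates were less alike there, and the direction of the 7 genes depended on the scaling. With TMM, 3 log2 fold changes were positive and 4 negative, from -0.60 ± 0.87 (SE) for TPT1 to 0.35 ± 0.62 (SE) for EEF1A1, whereas 6 of the 7 were positive with library size only and by limma on TPM with either pseudocount. EEF1A1 had 810, 2308 and 2127 CPM in FLAG medium, against 1149, 1069 and 1899 CPM in IgG medium. EdgeR called 0 of the 7 and 0% of all features, with an adjusted p of 1 for each of the 7 genes. None of them had an unadjusted p under 0.05 by edgeR, DESeq2 or limma, and the groups overlapped for all 7, while 5.07% of features were separated upward and 1.11% downward on CPM, and 2.87% and 0.582% on TPM. EEF1B2 over EEF1G was 0.795, 1.57 and 2.31 in FLAG medium, against 3.61, 1.298 and 1.60 in IgG medium, so the groups overlapped.

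The contrast between the enrichment after IL-17 and that in medium was tested as an interaction. EdgeR called 0 of the 7 and 0% of features, with adjusted p from 0.737 for EEF1B2 to 0.934 for EEF2, and no unadjusted p was under 0.05. DESeq2 and limma also called 0 of the 7. Averaged over both treatments, FLAG against IgG gave 0 of the 7 and 0% of features by edgeR, with adjusted p of at least 0.992; 0 of the 7 had an unadjusted p under 0.05 by edgeR and by limma, against 2 by DESeq2, which called 0. EEF1B2 was called for this average when the 4 libraries that stood apart were left out (log2 fold change 0.86, edgeR adjusted p = 0.0308), in a fit that called 3.56% of features and rested on a single IgG medium library.

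The next question was what IL-17 did to the RNA recovered with each antibody. In FLAG precipitates, 6 of the 7 genes had a positive log2 fold change on counts, with a median of 0.88 against -0.29 over all features tested. In the fit of features with at least 50 counts in 3 libraries, the median over all was -0.041. EEF1G stood at 560.0, 615 and 552 CPM in FLAG IL-17, against 134, 319 and 287 CPM in FLAG medium, a log2 fold change of 1.22 ± 0.55 (SE, unadjusted p = 0.0348, edgeR adjusted p = 0.457). Without the 4 libraries that stood apart it was 0.92 ± 0.25 (SE, edgeR adjusted p = 0.0572). EEF1A1, at 4265, 4004 and 3525 CPM in FLAG IL-17 against 810, 2308 and 2127 CPM in FLAG medium, had a log2 fold change of 1.17 ± 0.63 (SE, edgeR adjusted p = 0.464). EdgeR called 0 of the 7, where it called 0.225% of features; 1 of the 7, EEF1G, had an unadjusted p under 0.05. DESeq2 called EEF1A1 (log2 fold change 0.74, adjusted p = 0.0422) and EEF1G (log2 fold change 0.77, adjusted p = 0.0334), both upward. That fit called 6.09% of the 22140 features it tested, 184 of them higher and 1164 lower.

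Libraries were fully separated upward for EEF1A1, EEF1D, EEF1G, EEF2 and PABPC1, 5 of the 7, where 17.3% of all features were, and downward for 0 of the 7, where 11% were. The FLAG IL-17 libraries are those of the comparison with IgG IL-17 above, so the 2 results are not independent. On TPM the direction turned round. By limma on log2(TPM + 1), all 7 log2 fold changes were negative, from -1.12 ± 0.61 (SE) for TPT1 to -0.09 ± 0.82 (SE) for EEF1A1, with a median of -0.46 against -0.45 over all features, and 0 of the 7 were called (adjusted p of 0.49 or more). On log2(TPM + 0.1) the median of the 7 was -0.47 against -1.09 over all features, so their place among all features depended on the pseudocount. Whether these genes were higher or lower after IL-17 therefore depended on the scale. The 100 most abundant features held 89.4% to 92.8% of TPM in FLAG IL-17, against 80.3% to 88.3% in FLAG medium; the part of this difference in the TPM values was not tested. IL-17 libraries were also deeper, with 13653406 to 17723136 counts in FLAG IL-17 against 2402395 to 7563477 in FLAG medium, and the part of depth was not tested.

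In IgG precipitates, which hold background RNA, the 7 genes went in both directions. Of their log2 fold changes, 4 were positive, up to 0.83 ± 0.55 (SE) for EEF1G, and 3 were negative, down to -1.26 ± 0.88 (SE) for TPT1, around a median of 0.22 against 0.18 over all features. EdgeR called 0 of the 7, with adjusted p of at least 0.987 and no unadjusted p under 0.05, where it called 0.0125% of features. DESeq2 called 0 with 2 at an unadjusted p under 0.05, EEF1A1 and EEF1G, and limma called 0 with 1, TPT1. On CPM all 7 genes overlapped between IgG IL-17 and IgG medium, where 9.69% of features were separated upward and 1.93% downward.

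**Figure D3:**
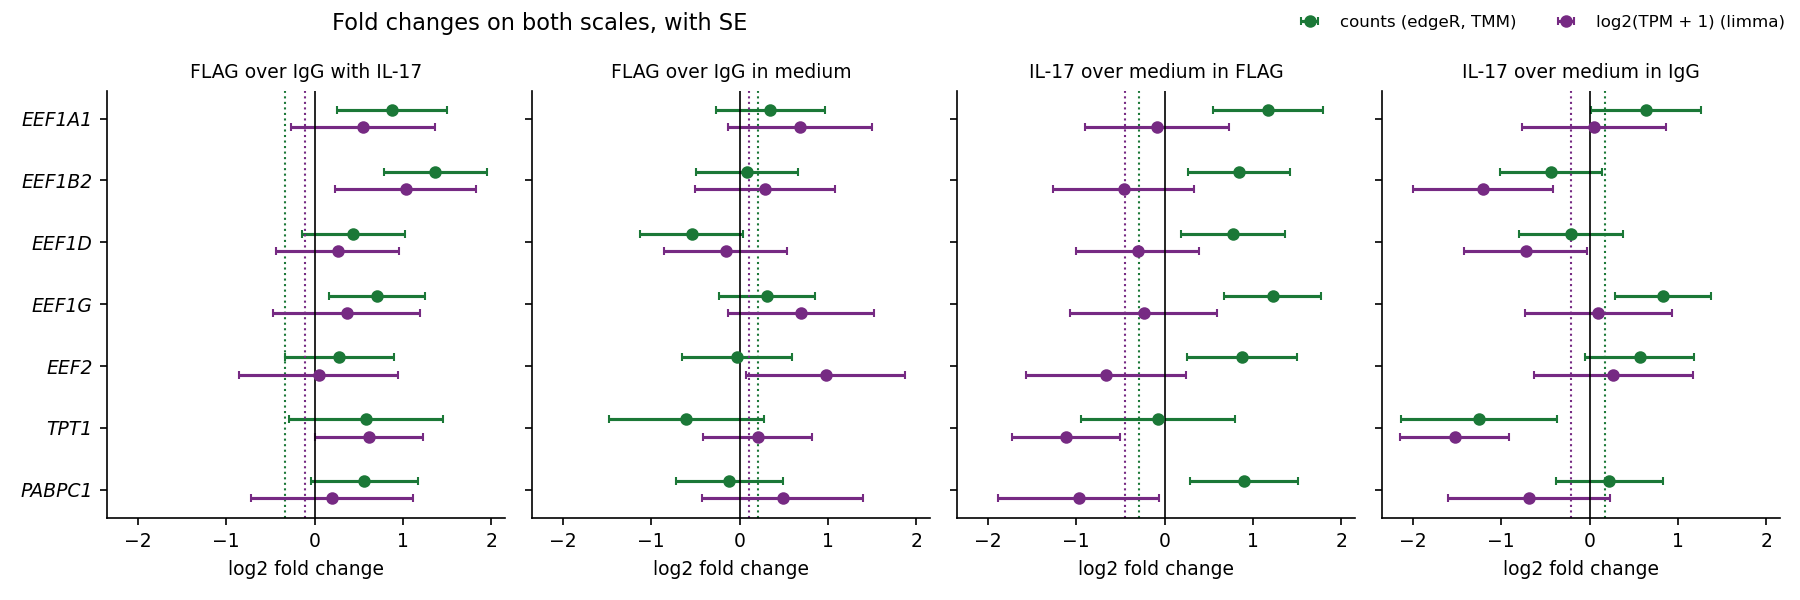
Log2 fold change (horizontal axis) of the 7 genes in 4 comparisons, from counts by edgeR and from log2(TPM + 1) by limma; bars are SE, and dotted lines are the medians of all 24040 features on the matching scale. For IL-17 over medium in FLAG, 6 of the 7 count values lie right of 0 and all 7 TPM values lie left of it.

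TPT1 stood apart from the other 6 genes in how its values behaved. Its CPM varied more between replicates than that of the other genes in every group but FLAG medium, where EEF1B2 varied more, with 1995, 4206 and 11675 CPM in FLAG IL-17, 1135, 3690.2 and 7108 CPM in IgG IL-17, 5109, 2333 and 11326 CPM in FLAG medium and 19773, 1698 and 7022 CPM in IgG medium. The highest replicate exceeded the lowest from 4.86-fold to 11.6-fold within a group, yet by TPM it did so only from 1.361-fold to 1.77-fold. For the other 6 genes the within-group range ran from 1.10-fold to 5.84-fold on CPM and from 1.23-fold to 17.6-fold on TPM.

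On TPM, TPT1 averaged 123 ± 23.2 in FLAG IL-17 against 271 ± 68.5 in FLAG medium, and 79.7 ± 14.6 in IgG IL-17 against 236 ± 64.8 in IgG medium (SD, n = 3 each). Both differences left no overlap between IL-17 and medium. Separation downward on TPM was found for TPT1 alone among the 7 in FLAG, where 24.6% of features showed it, and for TPT1 and EEF1D in IgG, where 3.98% did. Upward it was 0 of the 7 in FLAG, where 0.749% of features showed it, and 0 in IgG, where 2.2% did. By limma on log2(TPM + 1) the log2 fold change of TPT1 was -1.12 ± 0.61 (SE, adjusted p = 0.49) in FLAG and -1.53 ± 0.61 (SE, unadjusted p = 0.0236, adjusted p = 0.99) in IgG, so neither passed the threshold. On counts by edgeR the log2 fold change was -0.07 ± 0.87 (SE) in FLAG and -1.26 ± 0.88 (SE) in IgG. The IgG value ran from -2.03 without IgG IL-17 replicate 3 to -0.20 without IgG medium replicate 1.

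Counts and TPM differ by the length assigned to the counted transcripts as well as by scaling. The ratio of estimated count to TPM is proportional to the mean effective length of the transcripts to which the reads of a gene were assigned. It was scaled to the median of each library over the same 999 features. For TPT1 this apparent length was 1.05, 2.07 and 2.59 in FLAG IL-17, 2.09, 2.52 and 2.54 in IgG IL-17, 3.24, 2.68 and 3.13 in FLAG medium and 3.58, 3.23 and 3.16 in IgG medium. FLAG IL-17 replicate 1 was the lowest, and every medium library was above every IL-17 library. Over the 12 libraries TPT1 spanned a 3.40-fold range, more than 88.5% of those 999 features, whose median range was 1.97-fold.

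The remaining genes spanned narrower ranges than TPT1. EEF1A1 spanned 1.44-fold, EEF1B2 1.49-fold, EEF1G 1.40-fold, PABPC1 1.71-fold and EEF1D 1.87-fold, below the median range of the 999 features. EEF2 spanned 2.26-fold, above that median and more than 60.9% of the 999 features. EEF1A1 lay between 1.03 and 1.07 in the 6 IL-17 libraries and between 1.25 and 1.48 in the 6 medium libraries, so a shift between treatments was present there too, in the same direction as for TPT1. EEF1D, at 0.390 to 0.465 after IL-17 against 0.473 to 0.728 in medium, and EEF1G, at 0.749 to 0.787 after IL-17 against 0.795 to 1.05 in medium, were separated in the same way. The apparent length was thus lower in every IL-17 library for 4 of the 7 genes, where it was for 20.8% of the 999 features, and higher in every IL-17 library for 0 of the 7, where it was for 3.504% of them. Relative to EEF1A1 in the same library, the apparent length of TPT1 was 0.987 in FLAG IL-17 replicate 1 and between 1.93 and 2.46 in the other 11 libraries. On that reference the IL-17 and medium libraries overlapped for TPT1, EEF1D and EEF1G. TPT1 reached 2.46 after IL-17, against 2.14 to 2.41 in medium. EEF1D lay at 0.371 to 0.451 after IL-17 and 0.333 to 0.511 in medium. EEF1G lay at 0.705 to 0.740 after IL-17 and 0.623 to 0.706 in medium. EEF2 reached 2.44 in IgG medium replicate 1, where it had 163 counts, against 1.08 to 1.80 elsewhere. Reads from intronic RNA or from the small nucleolar RNA genes inside TPT1, EEF1B2 and EEF2 were not separated in the tables, and their part in these lengths was not tested.

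**Figure D4:**
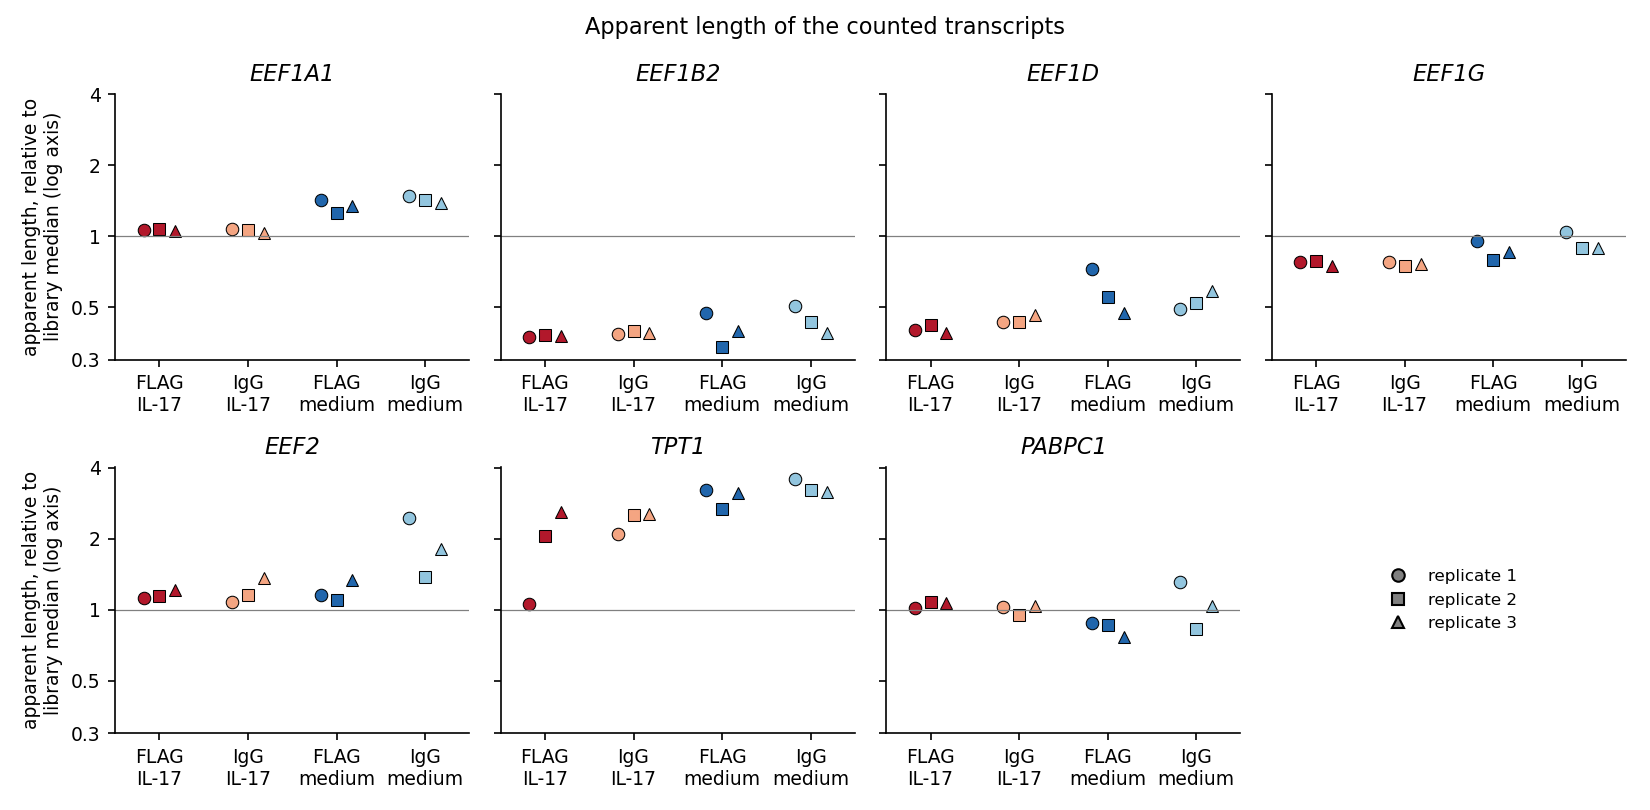
Apparent length of the counted transcripts (estimated count over TPM, relative to the library median, log axis) for each gene in the 12 libraries, by antibody and treatment; points are libraries, with 1 marker shape per replicate number. TPT1 lies at 1.05 in FLAG IL-17 replicate 1 and between 2.07 and 3.58 in the other libraries, whereas EEF1A1 lies between 1.03 and 1.48 in all 12.

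Likeness of pattern was measured as the root mean square difference of log2(CPM + 1) over the 12 libraries after each feature was centred on its own mean. EEF1A1 and EEF1G were the most alike of the 7, with a difference of 0.16: EEF1A1 was the nearest of all 24039 other features to EEF1G, and EEF1G stood at place 4 for EEF1A1. Their ratio by TPM was correspondingly narrow, from 3.96 to 6.07 over all 12 libraries. EEF2 and PABPC1 differed by 0.25 and stood at places 69 and 74 for each other. EEF1B2 lay further off, with its nearest fellow gene, EEF1D, at place 577. The features nearest to EEF1B2, ENSG00000114391.13 and ENSG00000142937.12, differed from it by 0.20 and 0.23; the files do not name them. The nearest fellow gene of TPT1, EEF1D, stood at place 701 with a difference of 1.03. Abundant features carry less counting noise and are alike more easily, and no test is attached to these values.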

How the data were processed

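The deposited tables hold estimated counts and TPM per Ensembl feature for 12 libraries. The second table is named for FPKM, but the deposited values sum to 1000000 per library and were treated as TPM. The tools named per the submitters' processing notes, without roles, are RSEM 1.3.1, R 4.2.0, STAR 2.7.9 and DESeq2 1.36.0; hg38 and GRCh38 are given as builds. Groups and replicate numbers came from sample titles; they do not say whether replicates were separate cultures, so the spread behind each p-value may be technical.

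Of counts above 0, 18% were not whole, and all were rounded. All 12 libraries were fitted together: filterByExpr (minimum count 10), TMM, and edgeR 4.0.16 (R 4.3.3) with its quasi-likelihood test, with Benjamini-Hochberg adjustment over all 24040 features and calls under 0.05. Standard errors are the log2 fold change over the root of F, and they share the dispersion of all groups. Alternatives used DESeq2 1.42.0 and limma 3.58.1.

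Members and lists were chosen with earlier results of these data known. All 7 genes were named whatever their values, and the 2 features nearest in pattern were found for each. The reference gene table held 0 Ensembl identifiers, so the transfected gene, kidney markers and other translation genes were not looked up. Symbols of the 7 come from the selection rule. Nearest features outside the 7 had no symbol available, and they are printed for EEF1B2 alone.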

Additional observations from a re-analysis of the deposited data

How the results depend on the processing

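Each comparison was refitted under up to 11 alternatives and with each of the 12 libraries left out in turn; those fits that leave out a library called 0 of the 7 genes in all 6 comparisons. DESeq2 called 2 for IL-17 over medium in FLAG, and a fit without IgG IL-17 replicate 1, FLAG medium replicate 1 and IgG medium replicates 1 and 2 called 1, EEF1B2, for FLAG over IgG averaged over treatments; both counts were 0 in edgeR on all libraries, and the other alternatives called 0. Whether the replicate numbers pair the libraries was not settled. Correlations of same-numbered deviations ran from -0.159 to 0.508, and 10 pairs were over 0.1. Those of differently numbered libraries ran from -0.480 to 0.483. Pairs of replicate 1 libraries lay at -0.148 to 0.508 and pairs of replicate 2 libraries at -0.159 to 0.219. All 6 pairs of replicate 3 libraries lay at 0.222 to 0.412. With a replicate block 0 of the 7 were called in every comparison. Over all features the block called 99 higher and 37 lower for IL-17 over medium in FLAG, against 53 and 1 without it. For IL-17 over medium in IgG it called 25 and 8, against 3 and 0. Of 28 log2 fold changes, 13 kept their sign throughout, among them EEF1A1, EEF1B2, EEF1D, EEF1G, EEF2 and PABPC1 for FLAG over IgG with IL-17. Of those that turned, EEF1A1 and EEF1G for IL-17 over medium in FLAG were called by DESeq2, and no other was called under these alternatives. Causes were not tested. Standard errors limit what these libraries could show. By edgeR on all libraries they were 0.54 to 0.88 in the comparisons of 2 groups. For the average over treatments they were 0.38 to 0.62, and for the interaction 0.77 to 1.24.

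For FLAG over IgG in medium, EEF2 (-0.03) turned to 0.0933 with RLE factors, 0.20 with library size only, 0.0719 without a filter, 0.0731 with 50 counts in 3 libraries, 0.091 by DESeq2, 0.28 with only the groups compared, 0.0632 with the replicate block, 0.98 and 1.03 by limma on log2(TPM + 1) and log2(TPM + 0.1), and ran from -0.39 to 0.77 with a library left out. EEF1B2 (0.08) was -0.23 with upper-quartile factors, -0.0823 with the replicate block and -0.34 to 0.57 with a library left out. EEF1D (-0.54) was 7.7e-05 with library size only, 0.18 without the 4 libraries and -0.85 to 0.15 with a library left out. TPT1 (-0.60) was 0.21 with either TPM pseudocount, 0.10 without the 4 libraries and -0.98 to 0.43 with a library left out. PABPC1 (-0.11) was 0.0263 with library size only, 0.12 with only the groups compared, 0.49 and 0.51 by limma on TPM, and -0.46 to 0.35 with a library left out. For FLAG over IgG with IL-17, TPT1 (0.58) ran from -0.45 to 1.06 with a library left out, the lowest without FLAG IL-17 replicate 3.

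For IL-17 over medium in FLAG, limma on log2(TPM + 1) and log2(TPM + 0.1) gave -0.087 and -0.0873 for EEF1A1, -0.46 and -0.47 for EEF1B2, -0.31 and -0.31 for EEF1D, -0.24 and -0.24 for EEF1G, -0.66 and -0.67 for EEF2, and -0.97 and -0.99 for PABPC1. TPT1 (-0.07) was 0.0037 with the replicate block and -1.37 to 0.019 with a library left out. For IL-17 over medium in IgG, EEF1D (-0.21) was 0.40 without the 4 libraries and -0.56 to 0.46 with a library left out. PABPC1 (0.22) was -0.68 and -0.68 by limma on both TPM scales, -0.0918 without the 4 libraries and -0.14 to 0.65 with a library left out. The median over all features moved with the scaling, for IL-17 over medium in FLAG from -0.29 to -0.89 with RLE factors, -0.92 with library size only and -0.62 with upper-quartile factors, where 6 of the 7 genes were positive under each. With 50 counts in 3 libraries that median was -0.041, and for FLAG over IgG with IL-17 it was -0.0097.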
